A study of Penaeus vannamei with 11 samples.

Results

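The hemocyanin genes of the Pacific white shrimp (Penaeus vannamei) were followed in RNA from hemocytes, the circulating blood cells. A gene was taken as a hemocyanin when the first name given to it in the deposited expression table contained that word, in upper or lower case. The rule found 28 of 18803 genes. It used names and no expression values.

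The 11 libraries fell into 4 groups. Control females had 3 libraries and control males 2, numbered 2 and 3; females given Vibrio parahaemolyticus had 3 and males given it 3. The labels tag every library, controls included, with the treatment "immune". Hemolymph was drawn into anticoagulant, the cells were spun down, and total RNA was taken with Trizol. Dose, route and time of the bacterium, strain and age of the animals, and the nature of the replicates (separate animals or pools) were not given in the sources used here, so p-values measure the spread between these samples, which may be technical.

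Hemocyanin is the copper protein that carries oxygen in the hemolymph of many arthropods and molluscs. In arthropods it is built from several subunits of common descent, assembled into hexamers or larger multiples, and its subunits are related to the phenoloxidases, the copper enzymes that start melanin formation in immunity. In shrimp it is secreted into the hemolymph and is known to be made mainly in the hepatopancreas, the digestive gland; immune roles such as antimicrobial activity of the protein and its fragments have also been described. The chain letters in the gene names (C chain, D chain) refer to subunits named in other arthropods. L1, L2 and L3 are likewise names of subunits.

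Of the 28 genes, 11 were named hemocyanin C chain-like, 7 hemocyanin subunit L2, 3 hemocyanin, 2 hemocyanin subunit L3, and 1 each hemocyanin subunit L1, hemocyanin-like, D chain-like, F chain-like and pseudohemocyanin-2-like. Pseudohemocyanins are hemolymph proteins of crustaceans that descend from hemocyanin and do not bind oxygen. The transcript identifier was of the coding type for 13 genes and of the non-coding type for 15. A later RefSeq gene table (assembly ASM4276789v1) holds 14 of the 28 identifiers, 13 as protein coding and 1 as a transcribed pseudogene.

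The genes lay close together. The deposited table placed 19 of the 28 on 1 scaffold within 241 kb, all on the minus strand, and no other gene of the table lay between the first and the last. LOC113830072 and LOC113830073, the pair with the highest levels, were neighbours on another scaffold, on opposite strands and 1491 bases apart. LOC113810616 and LOC113810615 shared a further scaffold, and the 28 genes fell on 8 scaffolds in all. By the later RefSeq annotation, 11 of the 14 matched genes were on 1 chromosome although they came from 4 of the deposited scaffolds, 13 genes of any kind spanned them, and the longest run of hemocyanins with no other gene between held 10. Such tandem copies can share reads. How the authors counted reads that match several copies is not given in the sources used here, so the level of a single copy is uncertain where its neighbours are alike in sequence, and the family sum is the safer quantity. Strand use in counting is also not given.

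Library totals were 39733829 to 53837438 counts, spread over 13210 to 15138 genes. Low counts (1 to 20) were even in 61.3 to 68.2% of cases, so a count was not 1 independent fragment, and the intervals given here cover counting error only and are too narrow. Within groups, chi-square values for pairs of libraries were at least 111 times their degrees of freedom, so none was a duplicate. The defining hemocyte genes were abundant: penaeidin-3a-like LOC113808997, an antimicrobial peptide gene of hemocytes, averaged 12182 ± 4165 FPKM (SD, n = 11), and 31 hemocyte markers summed to between 39755 and 80205 CPM per library. FPKM is fragments per kilobase of gene and sequencing depth, as deposited, and CPM is counts scaled to a common depth of 1e6 with TMM factors.

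Hemocyanin transcripts were detected in all 11 libraries, but their amount differed widely between them. Summed over the 28 genes, the control females had 33.2, 1292 and 495 CPM. The control males had 576 and 2299 CPM. The Vibrio females had 1106, 78.6 and 1494 CPM, and the Vibrio males 16.6, 333 and 232 CPM. Each group with 3 libraries therefore held a library far below its others: control female 1, Vibrio female 2 and Vibrio male 1. Control male 3 was the highest and Vibrio male 1 the lowest, a ratio of 138 (95% interval 130 to 148, exact binomial on the counts, counting error only).

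As a share of all counts, the family made up 0.236% in control male 3 (95% Wilson interval 0.235 to 0.238%, 116150 counts) and 0.00178% in Vibrio male 1 (0.00166 to 0.00190%, 878 counts). The group means were 607 ± 637 CPM in control females (SD, n = 3), 1437 ± 1218 in control males (n = 2), 893 ± 732 in Vibrio females (n = 3) and 194 ± 162 in Vibrio males (n = 3). The order was thus control males, Vibrio females, control females, Vibrio males, and every neighbouring pair in it differed by less than the larger of its 2 SDs. The number of the 28 genes with a count ran from 18 in control female 1 and Vibrio female 2 to 27 in control female 3 and Vibrio female 1.

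**Figure D1:**
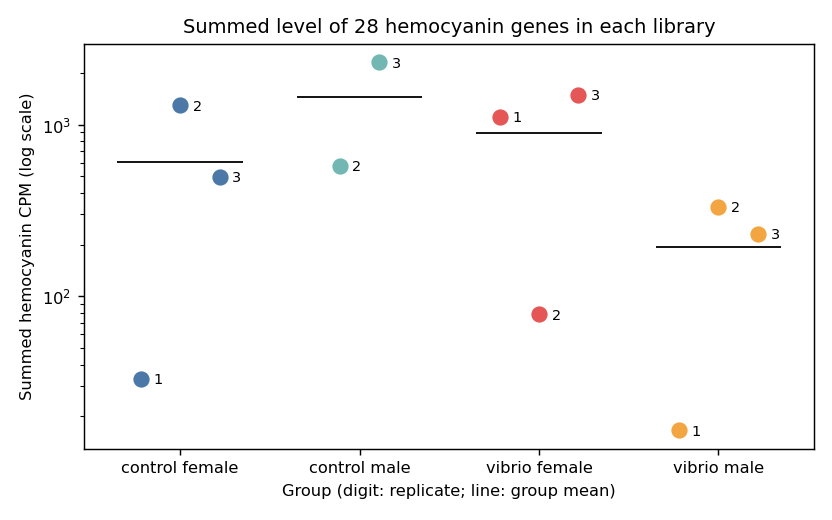
Summed level of the 28 hemocyanin genes in each library (CPM, log axis), by group, with a point for each library and a line at the group mean. Control female 1, Vibrio female 2 and Vibrio male 1 lie at 33.2, 78.6 and 16.6 CPM, and the other 8 libraries between 232 and 2299 CPM.

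A few genes made most of the hemocyanin RNA. By mean FPKM over the 11 libraries, LOC113830072, named hemocyanin, gave 28.2% of the family, LOC113830073 (C chain-like) 27.6%, LOC113823617 (subunit L1, partial) 22.4% and LOC113803871 (hemocyanin) 10.0%. These 4 gave 88.2%, and with the C chain-like genes LOC113819693 and LOC113823626 the share was 94.8%. Mean FPKM was at least 10 for 6 genes, at least 1 for 12 and under 1 for 16.

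LOC113830072 was at 4.85, 179 and 67.0 FPKM in the control females and at 70.1 and 309 FPKM in the control males. It was at 116, 11.2 and 205 FPKM in the Vibrio females and at 2.47, 53.7 and 37.4 FPKM in the Vibrio males. The 4 groups overlapped except that both control males lay above all 3 Vibrio males. Group means were 83.6 ± 88.3 FPKM in control females (SD, n = 3), 190 ± 169 in control males (n = 2), 111 ± 97.1 in Vibrio females (n = 3) and 31.2 ± 26.2 in Vibrio males (n = 3). Among all genes its rank by FPKM went from 287 in control male 3 to 8210 in Vibrio male 1.

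LOC113830073, its neighbour, was at 4.55, 167.6 and 64.0 FPKM in the control females, 66.9 and 293 in the control males, 110, 10.3 and 232 in the Vibrio females and 2.14, 50.6 and 35.1 in the Vibrio males. The means of the pair over 11 libraries, 95.98 ± 97.8 and 94.2 ± 97.3 FPKM (SD, n = 11), differed by far less than their spread. The ratio of LOC113830072 to LOC113830073 was 1.05 to 1.15 in 10 libraries and 0.886 in Vibrio female 3. LOC113803871, on another scaffold, ran from 0.692 to 107 FPKM (mean 34.2 ± 34.9, SD, n = 11) and kept a ratio to LOC113830073 of 0.324 to 0.406. The part of reads shared between copies in this steady ratio was not tested.

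LOC113823617, the only gene named subunit L1, was less strictly tied to them. It was at 2.57, 173 and 29.7 FPKM in the control females and 51.4 and 291 in the control males. In the Vibrio females it was at 91.3, 6.94 and 157 FPKM, and in the Vibrio males at 1.23, 21.9 and 13.7 FPKM. Its ratio to LOC113830073 went from 0.392 in Vibrio male 3 to 1.03 in control female 2. Its mean, 76.4 ± 93.7 FPKM (SD, n = 11), was within the spread of the 2 genes above it in the order.

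The C chain-like genes LOC113819693 and LOC113823626 formed the next level, with means of 11.5 ± 12.6 and 10.96 ± 11.9 FPKM (SD, n = 11). LOC113819693 ran from 0.453 to 37.2 FPKM, highest in control male 3, and LOC113823626 from 0.337 to 32.3 FPKM, highest in Vibrio female 1.

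Like most of the run of 19, the C chain-like gene LOC113823621 differed in profile from the most abundant genes. It was at 0.134, 4.69 and 5.46 FPKM in the control females, 1.48 and 6.58 in the control males, 37.5, 0.415 and 7.52 in the Vibrio females and 0.293, 1.26 and 1.95 in the Vibrio males. Vibrio female 1 stood far above the next library, Vibrio female 3, and the group means were 3.43 ± 2.88 (SD, n = 3), 4.03 ± 3.60 (n = 2), 15.2 ± 19.7 (n = 3) and 1.17 ± 0.833 (n = 3). Its ratio to LOC113830073 was 0.341 in Vibrio female 1 and from 0.0222 to 0.137 in the other 10 libraries.

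The remaining genes with a mean FPKM of at least 1 were likewise highest in Vibrio female 1. LOC113823622 (subunit L2) averaged 2.20 FPKM and reached 13.6 there. LOC113823629 (C chain-like) averaged 1.93 and reached 10.96. LOC113823643 (subunit L2) averaged 1.40 and reached 7.88, LOC113823620 (C chain-like) 1.19 and 6.402, and LOC113823638, the pseudohemocyanin-2-like gene, 1.13 and 6.004. LOC113823638 had no count in Vibrio female 2 and Vibrio male 1 and 235 counts in Vibrio female 1.

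The 16 genes under 1 FPKM ran on average from 0.969 FPKM for LOC113810616 (subunit L2, partial) downwards. LOC113827912, the hemocyanin-like gene, was at 0, 0.201 and 0.0408 FPKM in the control females, 0.0680 and 0.256 in the control males, 1.55, 0.0545 and 0.492 in the Vibrio females and 0.0501, 0.0510 and 0.0433 in the Vibrio males. Here all 3 Vibrio females lay above all 3 Vibrio males, although Vibrio female 2 exceeded the highest Vibrio male by little. LOC113823633 (hemocyanin) had 30 counts over all libraries and LOC113812411 (D chain-like) 25, each with none in 7 libraries. LOC113818022 (F chain-like) had no count in any library, where a count of 0 allows up to 3 counts per library. These last 3 genes failed the filter on low counts. The other 25 passed it and are the genes in every comparison that follows.

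**Figure D2:**
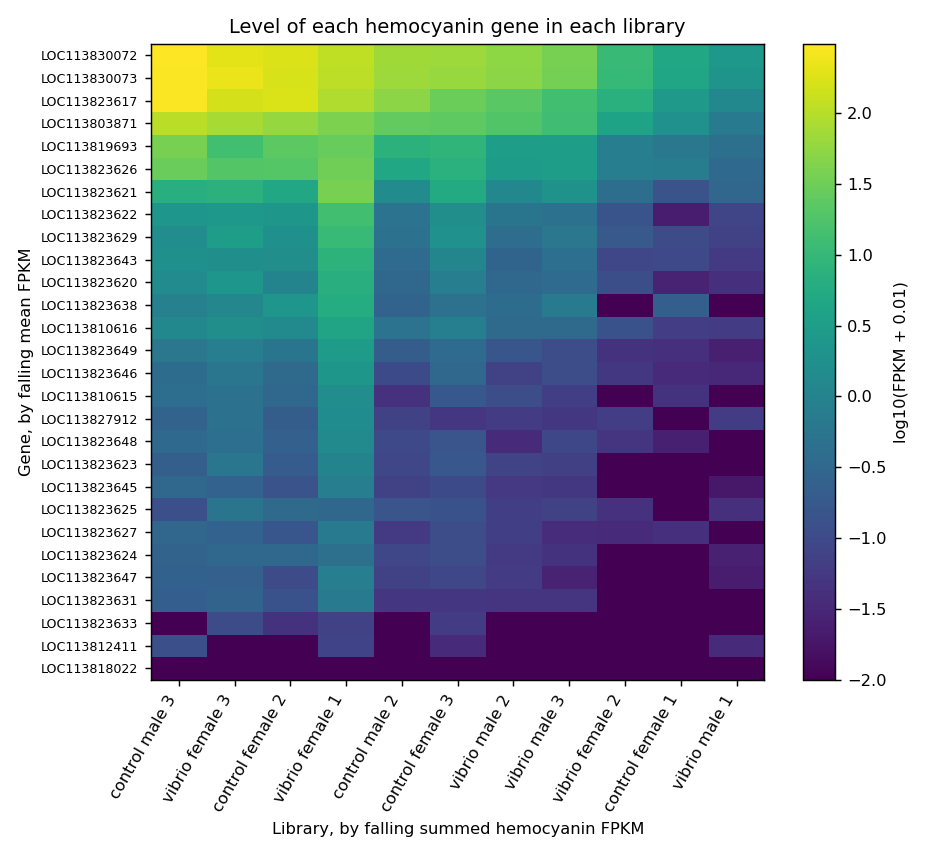
FPKM of each hemocyanin gene (rows, by falling mean FPKM) in each library (columns, by falling summed FPKM), as colour for the log10 of FPKM with 0.01 added. Control female 1, Vibrio female 2 and Vibrio male 1 form the columns on the right, at 16.003, 35.3 and 8.07 FPKM in sum, and most of the lower rows are highest in Vibrio female 1.

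The genes did not share 1 highest library. Vibrio female 1 was highest for 19, control male 3 for 6 and Vibrio female 3 for 2. The lowest level was in Vibrio male 1 for 13, in control female 1 for 12 and in Vibrio female 2 for 2, taking the first library in group order where several were at 0. The ratio of FPKM in Vibrio female 1 to that in control male 3 separated the abundant genes from the rest. It was 0.374 for LOC113830072, 0.375 for LOC113830073, 0.373 for LOC113803871, 0.314 for LOC113823617 and 0.755 for LOC113819693. It was above 1 for the other 20 tested genes, from 1.12 for LOC113823626 to 6.82 for LOC113823638.

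The 5 genes below 1 had mean FPKM from 11.5 to 95.98, and the 20 above 1 from 0.128 to 10.96. Of the tested genes in the run of 19, 17 were above 1 and LOC113823617 alone was below. This division was made after the values were seen and is a description with no test. The 20 genes gave 25.7% of the family's FPKM in Vibrio female 1, 13.1% in Vibrio male 1 and 4.13 to 9.96% in the other 9 libraries. The 4 most abundant genes gave 68.8% in Vibrio female 1, 81.0% in Vibrio male 1 and 86.0 to 93.2% elsewhere. The 20 genes were chosen for a higher level in Vibrio female 1 than in a control male. Their high share in Vibrio female 1 and low share in that control male were thus partly fixed by the choice. The other Vibrio females, which played no part in the choice, stood at 5.93 and 6.06% for the 20 genes, within the range of the controls. They did not share the high value of Vibrio female 1, and whether the shift belongs to that library alone was not tested.

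**Figure D3:**
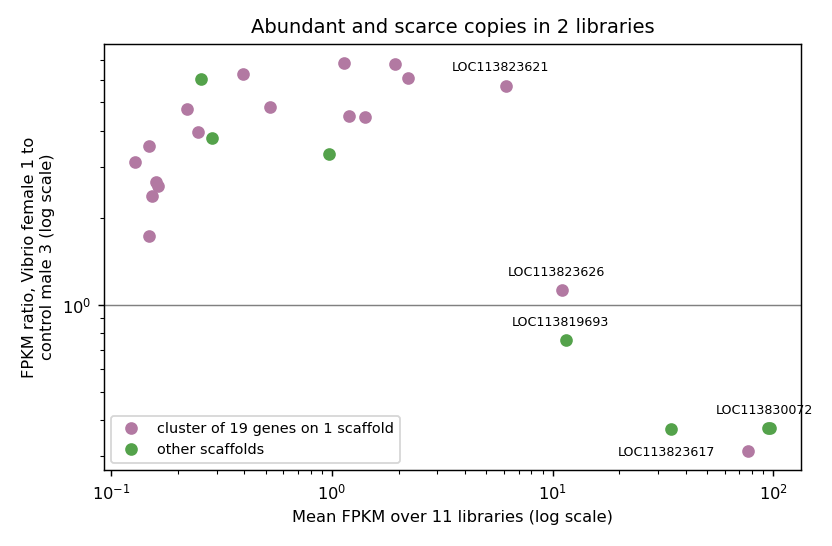
Ratio of FPKM in Vibrio female 1 to FPKM in control male 3 for each of the 25 tested hemocyanin genes (log axis), against mean FPKM over 11 libraries (log axis), coloured by whether the gene is in the run of 19, with a line at 1. LOC113830072 lies at 0.374 and LOC113823621 at 5.71, and each of the 5 genes under the line has a mean FPKM of at least 11.5.

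The genes rose and fell together over the libraries. Pearson's r of log2 CPM (prior count 2) between 2 tested hemocyanins had a median of 0.92 over 300 pairs, from 0.67 upwards, over 11 libraries. It was 0.93 on residuals from the group means, so the co-variation was also present within groups. The median was 0.92 without control male 3 and 0.88 without the 3 low libraries, where the lowest pair fell to 0.38. Among the 5 genes with a ratio below 1 the median r was 0.99, among the 20 above 1 it was 0.94, and between those sets it was 0.86, or 0.64 without the 3 low libraries. The sets were defined by 2 of the same libraries, and copies share libraries, depth and perhaps reads, so these values describe the libraries and carry no p.

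The spread of the family was wide beside that of other genes. The SD of log2 CPM over the 11 libraries was 1.35 to 2.55 for the 25 hemocyanins, with a median of 2.03, against a median of 0.47 for the 14295 genes tested. For LOC113830072 it was 2.26, at percentile 96.7 of those genes. The groups took up about as much of it as for other genes: a median of 25.1% of the variance of a hemocyanin lay between the 4 groups (10.3 to 43.7%), against 25.5% for all tested genes.

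Some genes outside the family had nearly the profile of LOC113830072. By Pearson's r of log2 CPM over the 11 libraries, the 3 closest of 14294 genes were hemocyanins, namely LOC113830073 and LOC113803871 (r 0.999 each) and LOC113823617 (r 0.987). LOC113819693 was in place 6 and LOC113823626 in place 8, so 5 hemocyanins stood among the 10 closest genes and 6 among the 100 closest. The others spread down to place 842 (LOC113827912, r 0.68).

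Of genes with a descriptive name that are no hemocyanins, the closest was LOC113827551, neprilysin-1-like (r 0.97, 0.265 to 39.8 CPM), a gene of the neprilysin family of membrane metallopeptidases. LOC113810715, apolipophorins-like, a hemolymph lipid carrier, followed (r 0.97, 0 to 6.65 CPM). Next were LOC113819139, fatty acid binding protein 1-B.1-like (r 0.96, 1.41 to 93.2 CPM), and LOC113813405, the beta-1,3-glucan binding protein that recognises fungal sugars (r 0.96, 0.655 to 45.7 CPM). LOC113824628 (mucin-2-like), LOC113802103 (probable G-protein coupled receptor 101), LOC113803973 (S-adenosylmethionine synthase-like, up to 179 CPM), LOC113818315 (O-acyltransferase like protein-like), LOC113827889 (a further neprilysin-1-like gene) and LOC113817581 (putative epidermal retinol dehydrogenase 2-like) completed the 10, with r between 0.94 and 0.95. LOC113824628 reached only 4.29 CPM and LOC113802103 only 1.41 CPM. Both were at no more than 0.125 CPM in control female 1, Vibrio female 2 and Vibrio male 1. Their r thus rested partly on values near the floor.

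The same comparison was made for LOC113823621 after its values were seen. The 5 closest genes with a descriptive name that are no hemocyanins, in places 3, 7, 10, 11 and 13 of all tested genes, were LOC113823155 (cytochrome P450 4C1-like, r 0.99, 0.716 to 142 CPM), LOC113808331 (venom carboxylesterase-6-like, r 0.98), LOC113803089 (endochitinase-like, r 0.97), LOC113813627 (knob-associated histidine-rich protein-like, r 0.97) and LOC113803884 (protein mesh-like, r 0.97). All 5 were highest in Vibrio female 1. The endochitinase-like gene stood at 138 FPKM there and at 0.623 to 15.7 FPKM in the other libraries.

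**Figure D4:**
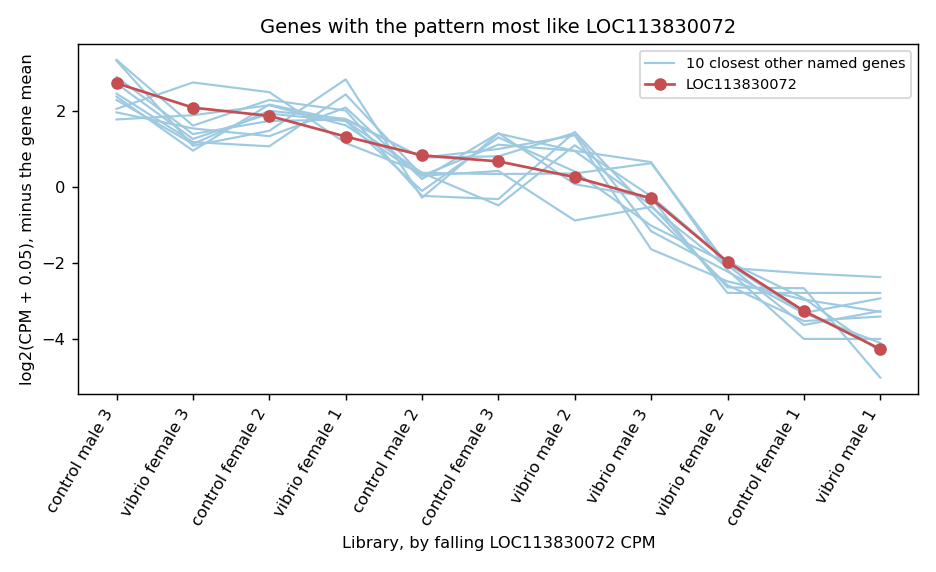
Log2 of CPM with 0.05 added, minus the mean of each gene, in each library (by falling LOC113830072 CPM), for LOC113830072 and the 10 closest other named genes, with a line for each gene. All lines fall towards Vibrio female 2, control female 1 and Vibrio male 1 on the right, where LOC113827551 is at 1.10, 0.491 and 0.265 CPM.

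Marker lists of other tissues were compared with the level of LOC113830072, since hemocyanin is known as a product of the hepatopancreas. The 119 hepatopancreas markers (digestive enzymes, fatty acid-binding proteins and vitellogenins) summed to between 1036 and 2843 CPM, 115 of them had a count and 4 were at 0 in every library. Cathepsin L genes, which many cells express, made up much of the sum. Without them 114 genes summed to between 412 and 1646 CPM. Both sums were highest in Vibrio female 1, the library where 19 hemocyanins and the named genes closest to LOC113823621 were also highest. Within the groups the full list ran from 1036 to 1500 CPM in control females, 1286 to 2220 in control males, 1349 to 2843 in Vibrio females and 1090 to 1588 in Vibrio males. The range for 31 hemocyte markers was 39755 to 80205, 40939 to 55955, 43704 to 46745 and 50528 to 51690 CPM in the same order.

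Over 11 libraries the log2 sum of the hepatopancreas list had a Pearson r of 0.62 with LOC113830072 (permutation p = 0.0172, adjusted 0.0954) and a Spearman rho of 0.64 (permutation p = 0.0408, adjusted 0.109). Without the 2 libraries farthest from the median of LOC113830072, control female 1 and Vibrio male 1, r was 0.41. On residuals from the group means it was 0.54. Without cathepsin L, r was 0.58 (permutation p = 0.0239, adjusted 0.0954) and rho 0.77 (permutation p = 0.00712, adjusted 0.0570). The hemocyte list gave r -0.35 (permutation p = 0.319, adjusted 0.510) and rho -0.66 (permutation p = 0.0304, adjusted 0.109). None of the 8 lists passed an adjusted p of 0.05 in two-sided permutation tests. The list without cathepsin L counts among the 8 and is a part of the full hepatopancreas list. The permutations ran over all libraries and did not keep the groups. Of the 100 genes closest to LOC113830072, 3 were hepatopancreas markers, where 86 of the 14295 tested genes were on that list. The part of digestive gland RNA in the hemocyanin levels was not tested.

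Single digestive genes behaved differently from each other. Trypsin-1-like LOC113815561, a digestive protease, was at 0.856, 41.6 and 42.4 FPKM in the control females, 2.90 and 39.5 in the control males, 79.8, 0.0959 and 47.4 in the Vibrio females and 0.498, 8.23 and 6.21 in the Vibrio males. It was thus lowest in the 3 libraries that were low in hemocyanin. Carboxypeptidase B-like LOC113825742 varied only from 36.7 to 74.1 FPKM and chymotrypsin A-like LOC113817651 from 14.7 to 29.7 FPKM. In these bulk libraries, fewer cells of a type and less RNA per cell cannot be told apart.

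The relatives and partners of hemocyanin had other profiles. The 5 phenoloxidase genes summed to between 2688 and 7261 CPM and gave r -0.34 with LOC113830072 (permutation p = 0.302, adjusted 0.510). Prophenoloxidase-1, LOC113827090, averaged 687 ± 270 FPKM (SD, n = 11) and was highest, at 1221 FPKM, in control female 1, a library with little hemocyanin. Phenoloxidase 3-like LOC113828743 averaged 548 ± 215 FPKM and phenoloxidase subunit 1-like LOC113828755 averaged 313 ± 158 FPKM. Each of these 3 exceeded the mean of every hemocyanin. An exception chosen after its values were seen was prophenoloxidase 3, LOC113812416, which reached 2.89 FPKM in Vibrio female 1 and at most 0.571 elsewhere.

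The 19 phenoloxidase-activating proteinases, which cleave the proenzyme, summed to between 1382 and 4658 CPM (r -0.46, permutation p = 0.161, adjusted 0.429). The 16 copper-handling genes gave r -0.04 (permutation p = 0.894, adjusted 0.894), and superoxide dismutase LOC113809633 of that list averaged 124 ± 35.3 FPKM (SD, n = 11). The 4 hypoxia and oxygen genes gave r -0.27 (permutation p = 0.408, adjusted 0.544), and hypoxia inducible factor 1 alpha, LOC113807763, averaged 114 ± 26.3 FPKM (SD, n = 11). The 81 muscle markers gave r -0.08 (permutation p = 0.804, adjusted 0.894). No gene of the table was named hexamerin, arylphorin or cryptocyanin.

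In the tests between groups no hemocyanin passed. Genes were compared with edgeR's quasi-likelihood test on all 11 libraries, with Benjamini-Hochberg adjustment over 14295 genes, and DESeq2 served as a second tool. edgeR called 0% of genes in each of the 5 comparisons. DESeq2 called 25, 15, 27, 12 and 17 genes in the order used here (0.165, 0.0867, 0.191, 0.0828 and 0.123% of those it tested), and none was a hemocyanin. Counts of genes by direction are descriptions: the copies move together, and they are not replicates.

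In females all 25 tested hemocyanins had a higher estimate with Vibrio than in controls, with a median log2 fold change of 1.9 (0.33 to 3.10), against 0.05 for all tested genes. None had an unadjusted p under 0.05, where 4.05% of all genes did, and the adjusted p ran from 0.986 to 0.993. No hemocyanin separated the 3 Vibrio females from the 3 control females, where 2.48% of genes did so upwards and 3.9% downwards. LOC113830072 differed by 0.39 (SE 1.31, edgeR adjusted p = 0.991) and LOC113823617 by 0.33 (SE 1.41, adjusted p = 0.993). Without control female 1 these were -0.17 and -0.24, and without Vibrio female 3 they were -0.37 and -0.42. Leaving out either library thus reversed their direction. LOC113823621 differed by 2.09 (SE 1.46, edgeR adjusted p = 0.986) and LOC113827912 by 3.10 (SE 1.43, adjusted p = 0.986). Without Vibrio female 1, which held the highest level of both, the values were 0.11 and 1.72, and the median over the 25 genes was 0.40. The 86 tested hepatopancreas markers had a median of 0.38, 56 of them higher, and the 40 tested muscle markers a median of -0.39, 30 of them lower. The part of those tissues was not tested.

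In males all 25 had a lower estimate with Vibrio, with a median log2 fold change of -2.16 (-3.80 to -0.67), against -0.03 for all genes. For 18 of them both control males lay above all 3 Vibrio males, where 11.5% of all genes did so. The copies share their libraries, so the 18 are not separate observations. The edgeR adjusted p ran from 0.933 to 0.964, and 2 hemocyanins had an unadjusted p under 0.05, against 2.41% of all genes. LOC113830072 differed by -2.61 (SE 1.47, edgeR adjusted p = 0.933) and LOC113823617 by -3.80 (SE 1.65, adjusted p = 0.933). Leaving out each library in turn moved the median between -2.79 and -1.06, the latter without control male 3. Of the 86 hepatopancreas markers 62 were lower, with a median of -0.88. Of the 40 tested muscle markers 30 were lower, with a median of -1.49, and of the 5 phenoloxidases 2 were lower, with a median of 0.17. The part of either tissue in the hemocyanin estimates was not tested.

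The difference between the male and the female effect, an interaction contrast, had a median of -3.89 (-4.80 to -1.92) over the 25 genes, all negative, against -0.08 for all genes. The edgeR adjusted p ran from 0.740 to 0.839, and 1 hemocyanin had an unadjusted p under 0.05, where 5.6% of all genes did. For LOC113830072 the difference was -3.0 (SE 1.97, edgeR adjusted p = 0.740). Without control male 3 the median was -2.58. Of the hepatopancreas markers 65 of 86 were negative, with a median of -1.39, and of the muscle markers 28 of 40, with a median of -0.86. The contrast shares its libraries with the 2 Vibrio effects and adds no separate evidence to them.

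Among controls, males against females, 22 of the 25 had a higher and 3 a lower estimate in males, with a median of 0.45 (-0.75 to 1.40). No hemocyanin separated the sexes, where 9.54% of genes were higher and 11.8% lower without overlap, and none had an unadjusted p under 0.05, where 4.88% of genes did. LOC113830072 differed by 1.24 (SE 1.45, edgeR adjusted p = 0.843). The median was -0.36 without control male 3 and -0.02 without control female 1. Gene by gene, 61 of the 86 hepatopancreas markers were lower in males, with a median of -0.33. Their summed level was 1753 ± 661 CPM in control males (SD, n = 2) and 1333 ± 258 in control females (n = 3). Without cathepsin L it was 604 ± 149 and 696 ± 210 CPM. Of the 40 muscle markers 28 were lower, with a median of -0.39. The part of either tissue was not tested.

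With Vibrio, all 25 had a lower estimate in males than in females, with a median of -3.36 (-3.98 to -1.76), against -0.09 for all genes. An unadjusted p under 0.05 was found for 10 of them, where 3.4% of all genes had one, yet edgeR's adjusted p was 1 for each. LOC113827912 was the only gene of the 25 whose groups did not overlap, where 2.95% of genes were lower and 4.82% higher without overlap, and it differed by -3.74 (SE 1.47, edgeR adjusted p = 1). Its raw counts were 8 in Vibrio female 2 and 8, 8 and 7 in the Vibrio males, so that separation rested on library scaling. The 10 held LOC113823621 (-3.67, SE 1.56) and not LOC113830072 (-1.76, SE 1.35). Without Vibrio female 1 the value of LOC113823621 was -1.69 and the median over the 25 genes -2.01. The hepatopancreas markers were lower for 69 of 86, with a median of -1.59, and the muscle markers for 32 of 40, with a median of -1.58. Their part in the difference was not tested.

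**Figure D5:**
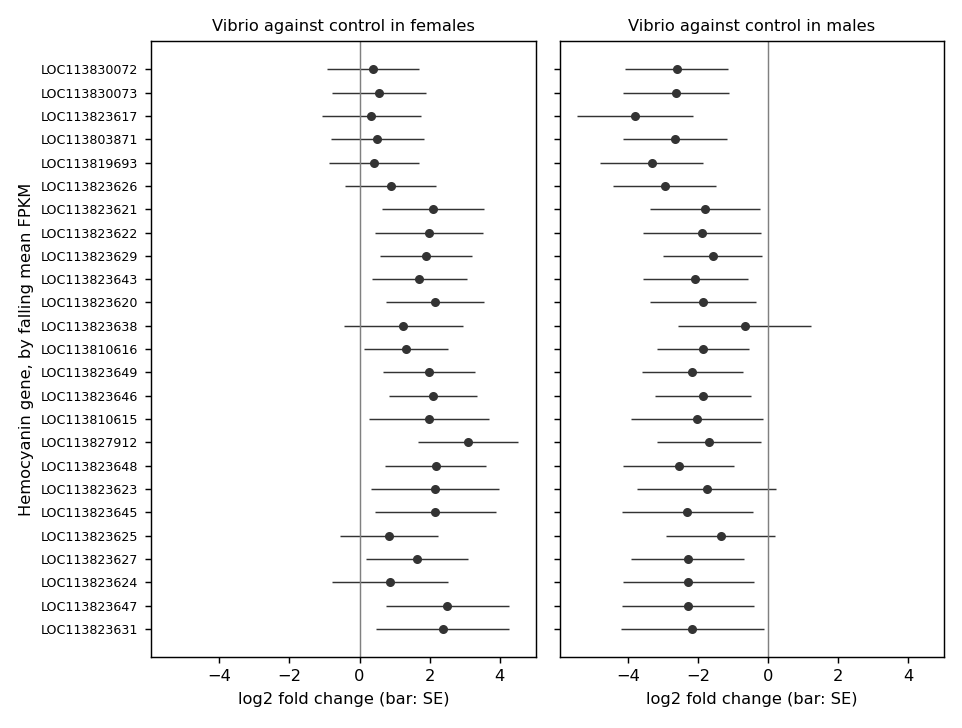
Log2 fold change with Vibrio against control in females and in males for each of the 25 tested hemocyanin genes, with bars of 1 SE from edgeR, in a panel for each sex. Every female estimate is above 0 and every male estimate below it, with medians of 1.9 and -2.16, and none passed an adjusted p of 0.05.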

How the data were processed

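The authors deposited, for each gene and library, a count (whole numbers with unequal library totals, taken as raw) and an FPKM value, per the file headers; cutadapt 1.9 and FastQC are named in the submitters' processing notes. The aligner, the counter, the build and the strand setting were not given in the sources used here; scaffolds are those of that unnamed build. The genes and lists were chosen with earlier results of these data known, and lists were matched by name. Counts were scaled by TMM and tested with edgeR 4.0.16 in R 4.3.3 (filterByExpr, minimum count 10, 14295 of 18803 genes; robust quasi-likelihood fit, 4 group means, all 11 libraries, so that control males with 2 libraries share the spread of the others; 5 two-sided contrasts; Benjamini-Hochberg over genes). The SE was derived from the fold change and its F statistic (log2 change over root F). DESeq2 1.42.0 was run on all genes with a count. Likeness was Pearson's r of log2 CPM (prior count 2). Correlations with list sums used 100000 permutations and Benjamini-Hochberg over 8 lists. Named in full were up to 12 hemocyanins by mean FPKM, the 10 named genes closest to LOC113830072, and up to 3 genes with the highest mean FPKM of a list; other genes were picked once values had been seen. The alternatives were other size factors, no filter, DESeq2, a replicate block, and leaving out libraries. The test script was tested on simulated data.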

Additional observations from a re-analysis of the deposited data

How the results depend on the processing

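The ratio of the highest to the lowest library in summed hemocyanin stayed within its interval of 130 to 148 with no TMM or with FPKM. Some single libraries moved by more than their counting interval with no TMM. Control male 2 went from 576 to 501 CPM, where its Wilson interval was 0.0494 to 0.0508% of counts. The median r between copies moved by less than its spread over pairs under another prior count, Spearman, residuals and without control male 3; without the 3 lowest libraries it was 0.88, but the median between the 2 sets of copies fell from 0.86 to 0.64 and the lowest pair from 0.67 to 0.38. No hemocyanin was called by edgeR or DESeq2 under any alternative run. Genes called were 0 in each contrast with edgeR, 0 to 1 when a library was left out, and 25, 15, 27, 12 and 17 with DESeq2. Without the 2 libraries highest in hemocyanin (control male 3 and Vibrio female 3) they were 2, 1, 2, 1 and 2; there and without a control male, the lone control male was taken to vary as much as other groups did. The log2 fold changes without those 2 were, in females, -0.35 for LOC113830072 and -0.40 for LOC113823617, both reversed. In control males against females they were -0.014, -0.14, -1.03 and -0.0079 for LOC113830072, LOC113823617, LOC113823621 and LOC113827912, with a median of -0.39 over the hemocyanins. The medians were -1.03 in males and -2.74 for the difference of effects. Without the 3 libraries lowest in hemocyanin, chosen after seeing the data, LOC113823621 was -0.34 and the median -0.019 in control males against females. The cause of these changes was not tested.

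Leaving out each library in turn gave, in females, -0.37 to 1.46 for LOC113830072, -0.42 to 2.24 for LOC113823617, 0.11 to 2.72 for LOC113823621, 1.72 to 4.87 for LOC113827912 and 0.40 to 2.47 for the median. In males the ranges were -3.28 to -1.38, -4.54 to -2.27, -2.46 to -0.56, -2.29 to -0.64 and -2.79 to -1.06. For the difference of effects they were -4.07 to -1.75, -6.04 to -2.58, -4.55 to -1.92, -6.57 to -3.42 and -4.55 to -2.58. In control males against females they were 0.02 to 2.31, -0.11 to 3.31, -0.99 to 0.88, 0.02 to 2.83 and -0.36 to 1.27. With Vibrio, males against females, they were -2.43 to -1.01, -3.47 to -1.98, -4.25 to -1.69, -4.28 to -2.36 and -3.94 to -2.01.

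With a replicate block, edgeR called 0 genes in every contrast, and each of the 4 named hemocyanins and the medians kept their sign. The block moved some estimates by over 1.5 times. In females LOC113830072 was 1.65 and LOC113823617 1.80, in control males against females LOC113823621 was 0.00016, and with Vibrio, males against females, LOC113830072 was -2.997. Of 15 same-numbered pairs of libraries, 5 had a correlation of deviations over 0.1 (-0.574 to 0.498). The check thus did not show that the numbers pair the samples. With so few libraries per group it cannot exclude pairing.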
